A study of Mus musculus with 6 samples.

Results

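RNA levels of 8 genes that accompany the regulatory T cell (Treg) state without defining it were followed in thymic Treg of NOD and C57BL/6 (B6) mice: Hopx, Cd83, Cpm, Izumo1r, Plagl1, Swap70, Ecm1 and Prnp. They are 8 of the 32801 gene symbols in the deposited table, taken by name, and all 8 passed the filter on low values (10 or more normalized counts in 3 or more libraries), which kept 16442 genes. The genes were chosen with their values by strain already known, so the difference between strains is described for them and not tested. The cells were CD4+CD8- Thy1.1+ GFP- cells of the thymus at an age of 3 weeks, with 3 libraries from NOD mice, which develop autoimmune diabetes spontaneously, and 3 from B6 mice, the strain of the reference genome. Both strains went through the same sort, and the labels do not state what GFP and Thy1.1 report, whether animals were pooled, or whether replicates came from separate animals. Spread between libraries may therefore be technical.

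Treg are CD4+ T cells that restrain immune responses under the transcription factor FOXP3, and part of them arise in the thymus. Around FOXP3 lies a wider set of genes that Treg express more than other CD4+ T cells, among them surface proteins, adaptors of the actin cytoskeleton and transcriptional regulators. HOPX is a homeodomain protein that does not bind DNA itself and acts through partner proteins, and in mice it is needed by Treg that form outside the thymus. CD83 is a surface protein of the immunoglobulin family, best known from dendritic cells, that keeps class II molecules and CD86 from being degraded. IZUMO1R (folate receptor 4), CPM and PRNP are all tied to the outer membrane by a glycosylphosphatidylinositol (GPI) anchor. The sorted cells carried the Treg markers in every library: Foxp3 averaged 2018 ± 305 normalized counts in NOD, against 2061 ± 344 in B6, where ± gives the SD of 3 libraries here and for all means that follow. A normalized count is taken here as a read count scaled by the authors for the size of the library and rounded.

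The promoters of Hopx and Cpm, the genes with the widest gap toward lower values in NOD, and of Prnp, with the widest gap toward higher values, are shown to compare the kind of start site each gene has. Each runs 5′ to 3′ on the strand of the gene, from 250 bases before to 50 bases after the start of transcription, and comes from RefSeq on GRCm38.p6, so it is B6 sequence and says nothing of NOD alleles. Hopx has 2 such starts, on the minus strand at chr5:77115074-77115373 and chr5:77095218-77095517. Cpm lies on the plus strand at chr10:117629250-117629549 and Prnp on the plus strand at chr2:131909678-131909977. Capitals mark matches on either strand to any of the motifs searched. Core promoter motifs were the TATA box written as TATAAA, the CCAAT box written by its name, and the GC box written as GGGCGG. The factor motifs were TGANTCA for AP-1 dimers, then TGACGTCA for the cyclic AMP response element, then TTCNNNGAA for STAT proteins and finally GGGNNTTCC for NF-kB.
Hopx, first start: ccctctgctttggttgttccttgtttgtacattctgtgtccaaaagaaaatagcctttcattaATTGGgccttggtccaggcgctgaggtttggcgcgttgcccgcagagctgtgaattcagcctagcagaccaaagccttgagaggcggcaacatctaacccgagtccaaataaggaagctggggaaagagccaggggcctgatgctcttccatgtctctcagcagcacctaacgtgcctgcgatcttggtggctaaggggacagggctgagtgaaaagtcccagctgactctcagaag
Hopx, second start: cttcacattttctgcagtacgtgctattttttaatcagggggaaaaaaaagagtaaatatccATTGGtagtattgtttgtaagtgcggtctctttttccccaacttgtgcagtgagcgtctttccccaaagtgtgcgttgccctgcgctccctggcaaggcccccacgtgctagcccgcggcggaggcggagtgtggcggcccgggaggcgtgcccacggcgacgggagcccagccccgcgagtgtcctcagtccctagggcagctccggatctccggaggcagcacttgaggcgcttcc
Cpm: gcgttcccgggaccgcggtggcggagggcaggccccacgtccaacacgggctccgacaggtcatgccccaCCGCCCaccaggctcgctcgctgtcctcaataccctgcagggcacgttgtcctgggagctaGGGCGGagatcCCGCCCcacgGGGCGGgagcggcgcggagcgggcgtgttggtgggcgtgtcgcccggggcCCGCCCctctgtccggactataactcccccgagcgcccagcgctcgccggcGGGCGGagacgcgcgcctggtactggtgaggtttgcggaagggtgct
Prnp: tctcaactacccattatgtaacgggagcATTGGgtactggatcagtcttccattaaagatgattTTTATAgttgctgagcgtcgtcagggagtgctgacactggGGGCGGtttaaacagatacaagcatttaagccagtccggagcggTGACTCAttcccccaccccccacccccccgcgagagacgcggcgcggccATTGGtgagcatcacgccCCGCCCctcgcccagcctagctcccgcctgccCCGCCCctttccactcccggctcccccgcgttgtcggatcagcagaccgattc

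These windows differed in base composition. The Cpm window held 37 CpG dinucleotides and 6 GC boxes, and 94.4% of 32851 RefSeq promoter windows of that length held fewer CpG. The windows of Hopx held 8 and 21 CpG, against a median of 7 over all windows, and a single CCAAT match each. The Prnp window held 22 CpG, 3 GC boxes, 2 CCAAT matches, 1 AP-1 match and 1 match to the TATA letters on the opposite strand. No match overlapped another in these 4 windows. A GC box occurred in 35.7% of all windows, CCAAT in 37.4%, the TATA letters in 13.6% and the AP-1 letters in 7.81%. They are matches of letters and not binding sites.

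Hopx was the member with the largest difference. It had 191, 219 and 160 normalized counts in NOD libraries 2, 10 and 18, against 2818, 2065 and 2286 in B6 libraries 4, 12 and 20. All NOD libraries lay far below all B6 libraries, and the lowest B6 value was 9.43 times the highest NOD value. The mean was 190 ± 29.5 in NOD and 2390 ± 387 in B6, so that B6 exceeded NOD 12.6-fold, with a log2 difference of -3.65 ± 0.16 (SE; NOD minus B6 on log2(value + 1)). Hopx lies on chromosome 5 (77086988 to 77115121, minus strand, mm10, from the GENCODE M21 annotation of GRCm38) and overlaps the antisense gene Hopxos, with which it shares 412 exon bases. Hopxos had 2, 4 and 8 normalized counts in NOD against 112, 152 and 127 in B6, so the antisense gene was low in the same libraries as Hopx. The sources used here do not state whether reads were counted by strand, so the reads of this pair cannot be told apart with certainty. In bulk RNA, fewer cells that express a gene and less RNA per cell cannot be told apart either, here and for the other genes. Reads of both strains were aligned to mm10, the B6 genome. Whether NOD reads were lost in alignment was not tested for any gene.

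Cpm encodes carboxypeptidase M, which trims C-terminal lysine or arginine from peptides at the cell surface. It had 433, 480 and 478 normalized counts in NOD libraries 2, 10 and 18, against 3629, 3343 and 2707 in B6 libraries 4, 12 and 20. The strains did not overlap, and NOD libraries were close to each other, with a coefficient of variation of 5.73% in NOD and 14.6% in B6. The mean was 464 ± 26.6 in NOD and 3226 ± 472 in B6, which gives a log2 difference of -2.79 ± 0.13, with B6 6.96-fold above NOD. Cpm lies on chromosome 10 (117629500 to 117687352, plus strand, mm10), and no other annotated gene shares exon bases with it.

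Cd83 was also lower in NOD. It had 2726, 3095 and 2851 normalized counts in NOD libraries 2, 10 and 18, against 4936, 6322 and 6278 in B6 libraries 4, 12 and 20. The strains did not overlap, and B6 library 4 was the B6 library nearest to NOD. The mean was 2891 ± 188 in NOD against 5845 ± 788 in B6, which gives a log2 difference of -1.01 ± 0.12, and B6 exceeded NOD 2.02-fold. Cd83 lies on chromosome 13 (43784775 to 43803132, plus strand, mm10). Because dendritic cells also express Cd83, a list of 12 dendritic cell markers was summed in each library. The sum lay between 1144 and 1434 normalized counts in NOD and between 1674 and 1805 in B6. Of the 7 markers that could be tested, Zbtb46 and H2-Aa fell in NOD. The call of Zbtb46 (limma adjusted p = 0.041) did not hold when library 18 of NOD, or library 4 or 12 of B6, was left out. Zbtb46 made up most of the sum, with 713 to 962 normalized counts in NOD and 1084 to 1272 in B6, while the defining markers Clec9a, Itgax and Flt3 reached at most 1, 16 and 9 normalized counts in any library. Xcr1, another defining marker, had 56 to 99 in NOD and 84 to 94 in B6 and was not called, and H2-Eb1 averaged 251 ± 82.1 in NOD and 155 ± 39.8 in B6, also not called. The dendritic cell sum was thus lower in NOD, as was Cd83. B6 library 4 had the highest sum (1805) and the lowest Cd83 value of the B6 libraries, and NOD libraries 2 and 10, with sums of 1434 and 1433, had the lowest and the highest Cd83 value of the NOD libraries. The part of these cells in the Cd83 difference was not tested, and the order of 3 libraries within a strain cannot decide it. A list of 8 B cell markers summed to between 5160 and 5659 in NOD and between 3663 and 4145 in B6, nearly all of it Ighm, while Ms4a1 reached at most 10. A list of 11 macrophage and monocyte markers summed to between 99 and 142 in NOD and between 165 and 184 in B6.

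**Figure D1:**
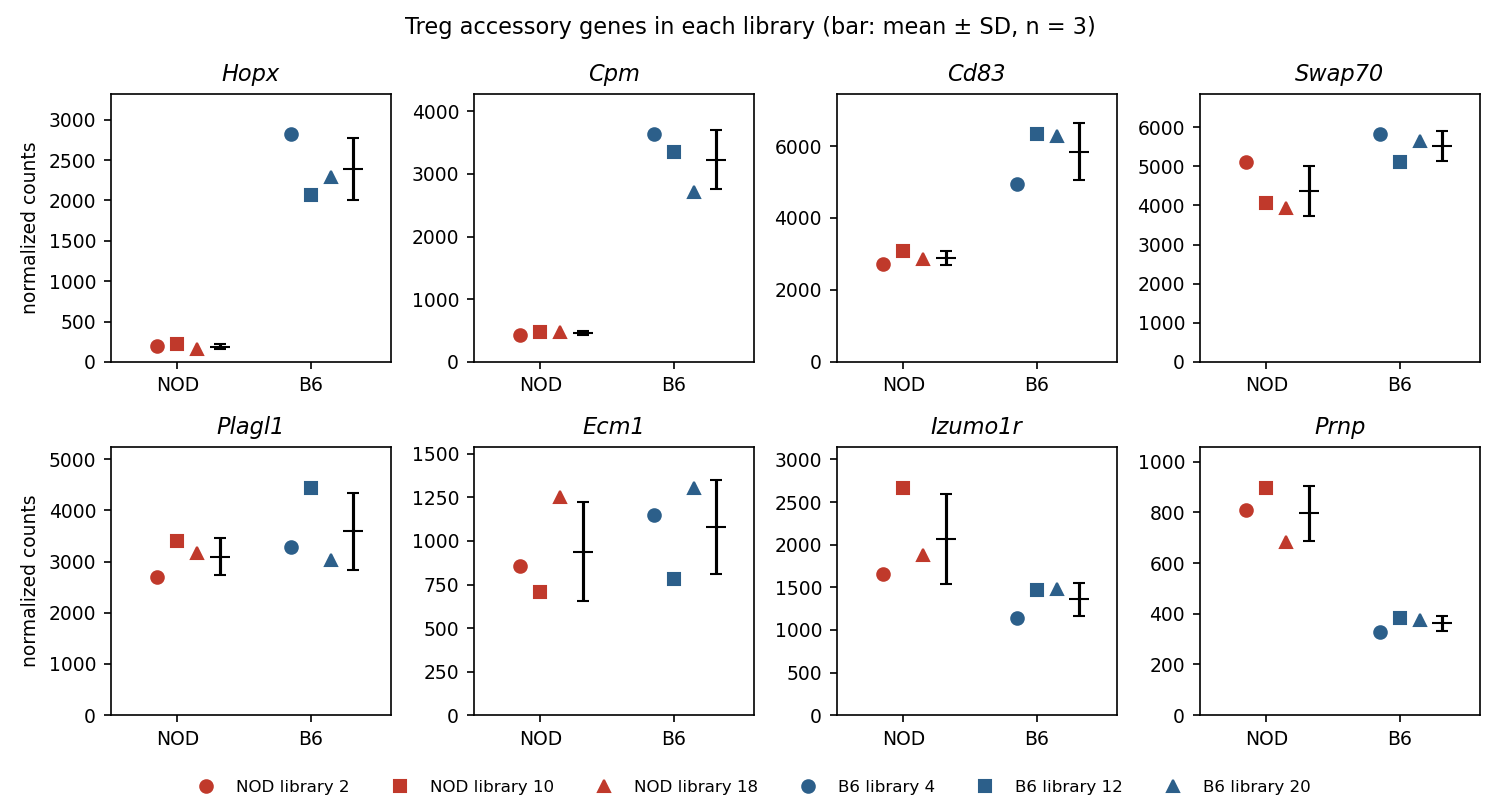
Normalized counts of the 8 genes in each library, on an axis from 0, with NOD libraries in red and B6 libraries in blue; the black bar gives the mean ± SD of 3 libraries. Hopx, Cpm and Cd83 lie lower in every NOD library than in any B6 library, Izumo1r and Prnp lie higher, and Swap70, Plagl1 and Ecm1 overlap.

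Prnp and Izumo1r were the members with a higher mean in NOD. Prnp encodes the cellular prion protein, a GPI-anchored glycoprotein of many cell types that is also found on T cells. It had 808, 897 and 682 normalized counts in NOD libraries 2, 10 and 18, against 326, 383 and 376 in B6 libraries 4, 12 and 20. Every NOD library was at least 1.78 times the highest B6 library. The mean was 796 ± 108 in NOD against 362 ± 31.1 in B6, which gives a log2 difference of 1.13 ± 0.14. Prnp lies on chromosome 2 (131909928 to 131938429, plus strand, mm10). The readthrough gene Prn shares 145 exon bases with it and had at most 1 normalized count in any library.

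Izumo1r encodes folate receptor 4, which on mouse T cells marks Treg and anergic CD4+ cells and on the egg is the receptor for the sperm protein IZUMO1. It had 1658, 2668 and 1877 normalized counts in NOD libraries 2, 10 and 18, against 1139, 1467 and 1479 in B6 libraries 4, 12 and 20. The strains did not overlap, but the gap was narrow, with the lowest NOD value 1.12 times the highest B6 value. The mean was 2068 ± 531 in NOD against 1362 ± 193 in B6, which gives a log2 difference of 0.58 ± 0.17. Without NOD library 10, the highest of the 6, the difference was 0.38. Izumo1r lies on chromosome 9 (14885814 to 14903949, minus strand, mm10).

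The remaining members, Swap70, Plagl1 and Ecm1, overlapped between strains. Swap70 encodes a phosphoinositide-binding protein that works with the GTPase RAC and with actin. It had 5099, 4072 and 3946 normalized counts in NOD libraries 2, 10 and 18, against 5813, 5097 and 5641 in B6 libraries 4, 12 and 20. NOD library 2 and B6 library 12 were nearly equal, and the other NOD libraries were lower than the other B6 libraries. The mean was 4372 ± 632 in NOD against 5517 ± 374 in B6, which gives a log2 difference of -0.34 ± 0.12. The antisense gene Gm45515 shares 395 of the 8090 exon bases of Swap70 and had 226, 166 and 173 normalized counts in NOD against 246, 323 and 332 in B6. As with Hopx and Hopxos, reads of this pair cannot be told apart with certainty, since the strand setting is not stated.

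Plagl1 encodes a zinc finger transcription factor expressed from the paternal allele and linked to growth arrest. It had 2697, 3409 and 3173 normalized counts in NOD libraries 2, 10 and 18, against 3289, 4441 and 3031 in B6 libraries 4, 12 and 20. B6 library 12 stood above the others, and the rest of the libraries intermixed. The mean was 3093 ± 363 in NOD against 3587 ± 751 in B6, which gives a log2 difference of -0.20 ± 0.15.

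Ecm1 encodes a secreted glycoprotein of the extracellular matrix that, in mice, is needed by T helper 2 cells to leave lymph nodes. It had 858, 706 and 1254 normalized counts in NOD libraries 2, 10 and 18, against 1151, 783 and 1306 in B6 libraries 4, 12 and 20. NOD library 10 and B6 library 12 were the lowest of their strains and NOD library 18 and B6 library 20 the highest, and the spread within a strain was wider than the difference between means. The mean was 939 ± 283 in NOD against 1080 ± 269 in B6, which gives a log2 difference of -0.21 with a 95% interval of -0.70 to 0.28. The interval is wide enough to hold a moderate change in either direction.

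In all, NOD and B6 libraries did not overlap for 5 of the 8 genes, 3 of them lower and 2 higher in NOD. Among the 16442 tested genes the same was true of 24.1%, but the members were chosen on this contrast and nothing is read from their count. NOD library 10 held the highest NOD value for 6 of the 8 genes, and Swap70 and Ecm1 were the exceptions. Over all tested genes this library correlated at 0.976 and 0.978 with NOD libraries 2 and 18, against 0.987 between those. It was not alone in this, since B6 library 20 correlated at 0.976 and 0.973 with B6 libraries 4 and 12. The share of all genes highest in NOD library 10 was not counted, so nothing is read from the 6. The B6 libraries shared the highest places more evenly, with 3, 3 and 2 genes in B6 libraries 4, 12 and 20. The authors' deposited table gives log2 fold changes of -3.65 for Hopx, -2.80 for Cpm, -1.02 for Cd83, -0.34 for Swap70, -0.21 for Plagl1, -0.20 for Ecm1, 0.60 for Izumo1r and 1.14 for Prnp. Their standard errors there, in the same order, were 0.25, 0.17, 0.23, 0.12, 0.19, 0.42, 0.21 and 0.16. None was smaller than the SE given above. These values come from the same contrast and are no independent check.

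Levels of different genes were compared per kilobase of annotated exon. In NOD, Cd83 led with 1124 ± 73.0 normalized counts per kilobase, followed by Izumo1r (891 ± 229 per kilobase), Swap70 (540 ± 78.2), Plagl1 (396 ± 46.4), Ecm1 (373 ± 112), Prnp (340 ± 46.1), Hopx (125 ± 19.5) and Cpm (77.7 ± 4.46). In B6, Cd83 also led with 2273 ± 306 normalized counts per kilobase, and Hopx came next at 1576 ± 255 per kilobase. Swap70 (682 ± 46.2 per kilobase), Izumo1r (587 ± 83.2), Cpm (541 ± 79.1), Plagl1 (459 ± 96.0), Ecm1 (428 ± 107) and Prnp (154 ± 13.3) followed. Hopx was thus the seventh of the 8 genes in NOD and the second in B6, and Prnp was the sixth in NOD and the lowest in B6. In NOD, the ranges of Cd83 and Izumo1r over libraries overlapped in level per kilobase. So did those of Swap70 and Ecm1 and those of Plagl1, Ecm1 and Prnp. These ranges do not pair genes by library. Within each NOD library Cd83 stood above Izumo1r, most narrowly in NOD library 10 (1203 against 1150 per kilobase). In B6, each gene from Swap70 down to Ecm1 overlapped with the next. The exon length takes in every annotated isoform, so levels of genes with long rarely used exons are understated.

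**Figure D2:**
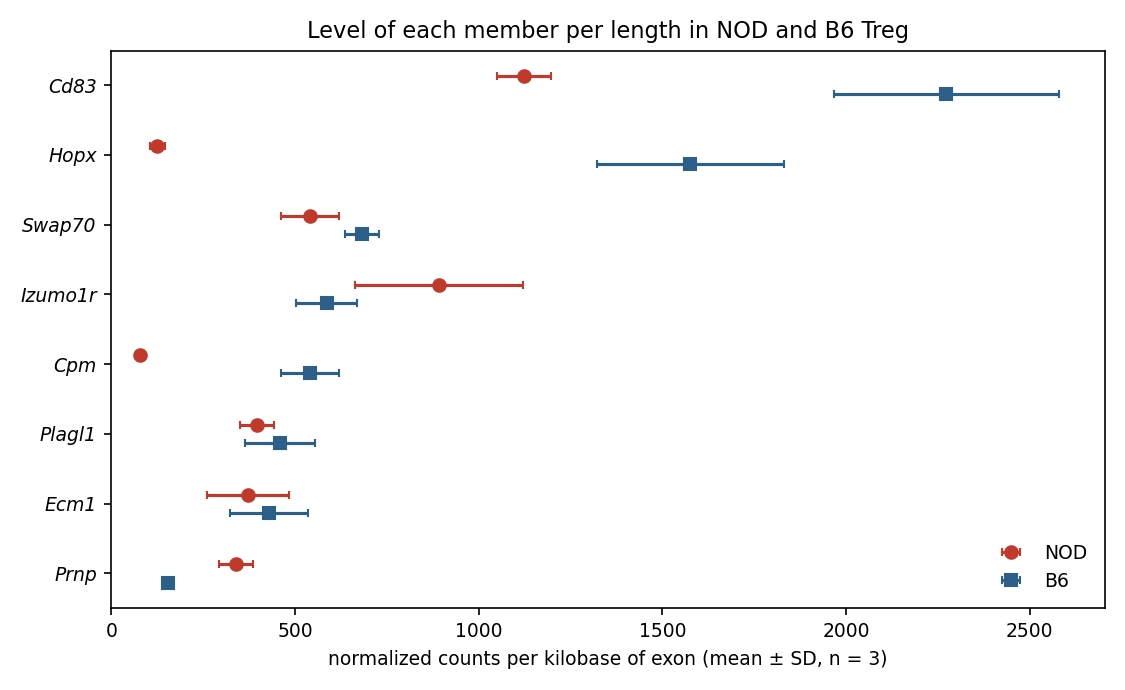
Normalized counts per kilobase of annotated exon for each gene, mean ± SD of 3 libraries, with NOD as red circles and B6 as blue squares, ordered by the B6 level. Hopx stands at 125 per kilobase in NOD, against 1576 in B6, while Plagl1 and Ecm1 hold similar positions in both strains.

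The nearest tested protein-coding genes on either side of each member were examined, to see whether they also differed by strain. Their distances ran from 0.407 to 926 kilobases, so some do not lie close by. These 16 neighbours are not members and were tested with limma across all genes. Of the 16, 1 rose and 1 fell in NOD, and the others did not pass. Without NOD library 10, Sf3b5 beside Plagl1 also passed. Among all tested genes, 4.59% were called higher and 5.30% lower in NOD. Srp72 and Rest, 87.1 and 150 kilobases away on either side of Hopx, had log2 differences of 0.19 ± 0.11 and 0.01 ± 0.10 (SE). Mdm2, which lies 1.52 kilobases beyond the end of Cpm, averaged 2286 ± 175 normalized counts in NOD and 2300 ± 112 in B6. On either side of Cd83, Mcur1, 225 kilobases away, averaged 656 ± 43.9 in NOD and 646 ± 13.5 in B6. Jarid2, 926 kilobases away, averaged 6495 ± 1081 and 5859 ± 583.

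The neighbour that rose was Gpr83, an orphan receptor gene that is itself part of the Treg signature and lies 15 kilobases from Izumo1r on chromosome 9. Gpr83 averaged 400 ± 69.2 normalized counts in NOD against 145 ± 30.4 in B6, which gives a log2 difference of 1.46 ± 0.20 (SE, limma adjusted p = 0.00053). Panx1, on the other side of Izumo1r, had a log2 difference of 0.30 ± 0.11 that missed the threshold (limma adjusted p = 0.14). The neighbour that fell was Smox, which encodes spermine oxidase and lies 384 kilobases from Prnp. Smox averaged 809 ± 190 in NOD against 1546 ± 206 in B6, which gives a log2 difference of -0.95 ± 0.17 (limma adjusted p = 0.0031), in the opposite direction to Prnp.

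**Figure D3:**
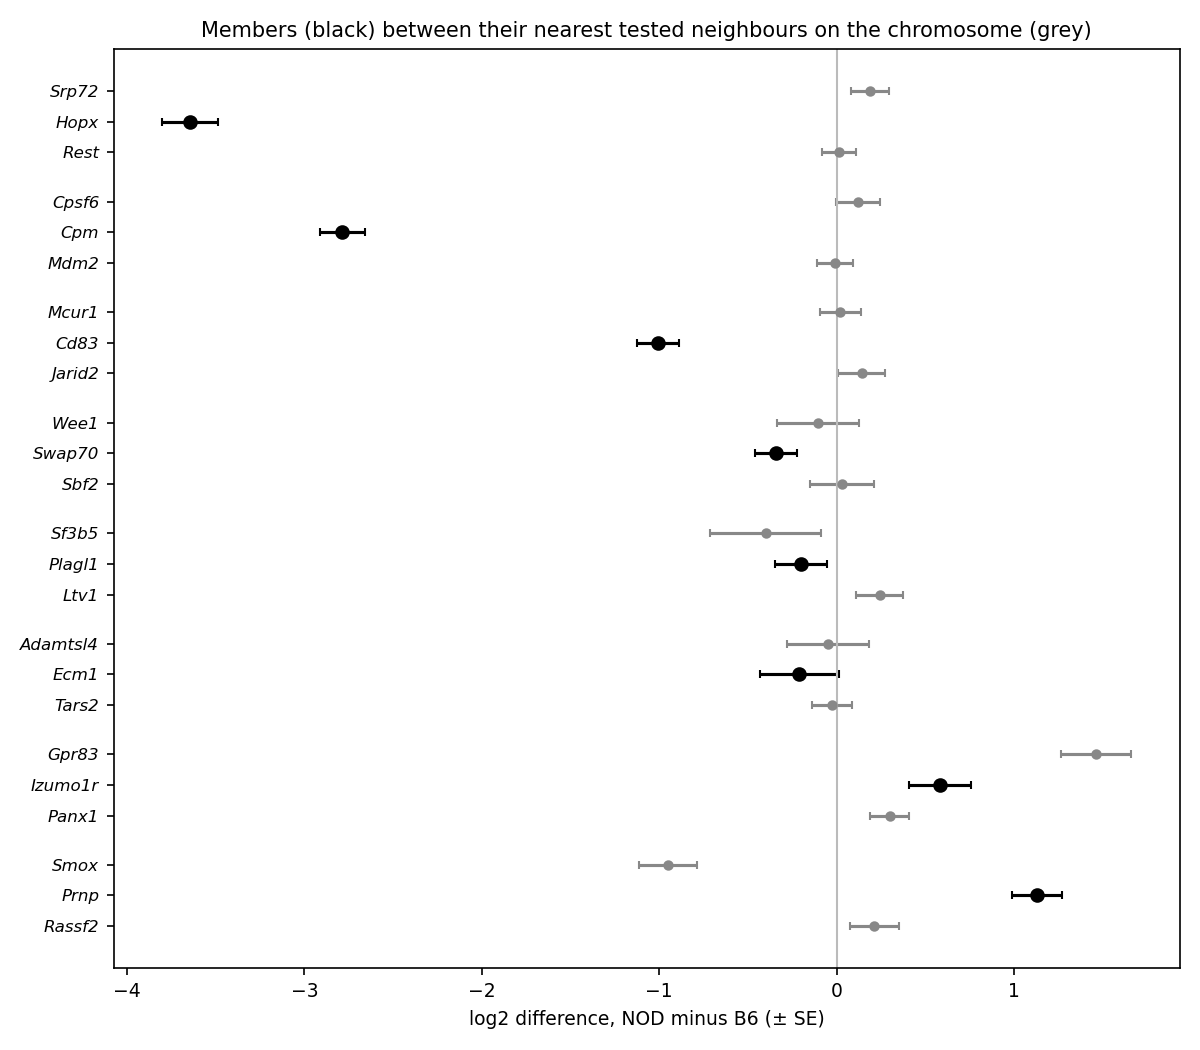
Log2 difference between strains (NOD minus B6, ± SE of the limma fit) for each member in black and for the nearest tested protein-coding gene on either side in grey. The neighbours of Hopx, Cpm and Cd83, which are 1.52 to 926 kilobases away, lie near 0. Gpr83 beside Izumo1r lies at 1.46 and Smox beside Prnp at -0.95.

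Genes with known ties to each member were then counted in lists from which the members were left out. Over the 11 lists together, 13 of 180 tested genes rose and 22 fell in NOD. The lists were drawn up with earlier results of these libraries known, so a list's share of calls is a description beside the 9.89% called among all tested genes.

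Of 28 genes of the Treg signature, 5 rose and 8 fell, and their median log2 difference was -0.10, against 0.01 over all tested genes. Beside Gpr83, those that moved most were Nt5e, which encodes the enzyme CD73 (-1.55 ± 0.14, limma adjusted p = 3.0e-05), the actin-capping gene Capg (-1.17 ± 0.14), and Cst7, a cystatin (-0.91 ± 0.19). Nt5e, which marks anergic CD4+ cells together with Izumo1r, averaged 4042 ± 834 in NOD and 11693 ± 1025 in B6, in the direction opposite to Izumo1r. Without B6 library 4, 3 of the signature genes rose and 5 fell, and 5 also fell without NOD library 18 or B6 library 12. Cst7 was not called without NOD library 18 (adjusted p = 0.052) or B6 library 12 (adjusted p = 0.061).

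HOPX is known in mouse Treg as a restraint on AP-1, the dimers of FOS and JUN proteins, and in heart muscle as a partner of SRF and of HDAC2. Of 14 tested AP-1 and HOPX partner genes, 0 passed limma's test in either direction, 0 had an unadjusted p below 0.05, and 0 passed in the authors' deposited table. Fos averaged 1298 ± 356 normalized counts in NOD and 1690 ± 504 in B6, and Fosl2 9500 ± 1482 and 10419 ± 623. Junb varied most, at 3585 ± 3066 in NOD and 6017 ± 2228 in B6. Hdac2 averaged 1474 ± 112 in NOD and 1347 ± 231 in B6. Without NOD library 10, 1 gene of this list fell.

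Of 9 tested genes of class II presentation and of the proteins that CD83 protects, 2 fell, and 1 passed in the authors' deposited table. Cd74, the class II invariant chain, averaged 352 ± 48.0 in NOD and 731 ± 70.3 in B6 (log2 difference -1.06 ± 0.14, limma adjusted p = 0.00052). H2-Aa, a class II chain, averaged 51 ± 18 in NOD and 141 ± 59.8 in B6 (limma adjusted p = 0.039), and kept its call in a single fit with a library left out, the fit without B6 library 12. H2-Ab1 averaged 51 ± 7.94 in NOD and 93.3 ± 16.5 in B6 and missed the threshold (limma adjusted p = 0.054). All H2 genes of this list belong to a region whose haplotype differs between the strains, and alignment was to the B6 genome. The costimulatory ligand genes Cd86 (463 ± 128 in NOD and 693 ± 72.5 in B6, adjusted p = 0.081) and Cd80 (866 ± 83.4 and 1229 ± 347, adjusted p = 0.14) did not pass the test. Among class II genes, H2-DMa had the higher mean in NOD (123 ± 20.8, against 84.7 ± 1.53 in B6, adjusted p = 0.17), as did H2-Eb1 (adjusted p = 0.14), and neither was called. The class II genes H2-Aa, H2-Ab1 and H2-Eb1 also belong to the dendritic cell markers, whose sum was lower in the same NOD libraries.

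Izumo1r belongs to the folate receptor family. Of 18 tested folate and one-carbon genes, 2 fell: Mtrr, the reductase that keeps methionine synthase active (-0.97 ± 0.15, limma adjusted p = 0.0013), and Mtfmt, the mitochondrial methionyl-tRNA formyltransferase (-0.63 ± 0.16, adjusted p = 0.024). Mtfmt kept its call only without NOD library 10, and 1 gene of the list also rose there. The transporter gene Slc19a1 averaged 221 ± 13.7 in NOD and 186 ± 6.66 in B6, a difference that missed the threshold.

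Of 15 tested imprinted genes and relatives of Plagl1, 0 passed limma's test, 4 had an unadjusted p below 0.05, and 0 passed in the authors' deposited table. Without NOD library 2, 1 gene of the list rose. The paralogs Plagl2 (985 ± 107 in NOD and 797 ± 165 in B6) and Plag1 (122 ± 28.0 and 147 ± 31.9) did not pass the test. Igf2r averaged 6018 ± 302 in NOD and 5871 ± 326 in B6.

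Of 22 genes of the SWAP-70 family and the RAC pathway, 1 rose and 2 fell. Pak1, a kinase activated by RAC and CDC42, averaged 242 ± 40.1 in NOD and 550 ± 118 in B6 (-1.17 ± 0.19, limma adjusted p = 0.0018). Tiam2, an exchange factor for RAC, fell at a low level, with 8.0 ± 1.73 in NOD and 35.3 ± 8.96 in B6 (adjusted p = 0.0068, and 0.0501 without B6 library 4). Arhgdib, an inhibitor of small GTPases, rose by 0.39 ± 0.11 (adjusted p = 0.041), and was called in a single fit with a library left out, the fit without NOD library 10, and not in the authors' deposited table. Def6, the closest relative of Swap70, averaged 1117 ± 292 in NOD and 1037 ± 63.5 in B6, and Irf4, which both proteins restrain in mouse lymphocytes, 1732 ± 563 and 2033 ± 831. Neither passed the test.

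Of 12 tested genes tied to Ecm1, 1 rose and 3 fell. S1pr1, the receptor for lymphoid egress, averaged 8192 ± 921 in NOD and 5687 ± 54.4 in B6 (0.52 ± 0.11, limma adjusted p = 0.0091). Itgav, the integrin alpha V chain, averaged 6785 ± 916 and 13396 ± 519 (-0.99 ± 0.12, adjusted p = 0.00018), and its partner Itgb8 3166 ± 798 and 4875 ± 357 (adjusted p = 0.02). Itgb8 was not called when any of B6 library 4, B6 library 20 or NOD library 18 was left out. Hspg2, the gene of perlecan, fell at a low level (18 ± 3.46 in NOD and 72.3 ± 5.03 in B6, adjusted p = 0.001). Klf2, a regulator of S1pr1, averaged 835 ± 156 in NOD and 691 ± 145 in B6 and missed the threshold.

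Of 8 tested metallocarboxypeptidase genes, the family of Cpm, 0 passed limma's test, 0 had an unadjusted p below 0.05, and 0 passed in the authors' deposited table. Without a trend in the empirical Bayes step, 1 gene of this list fell. Cpd, the most abundant of those named, averaged 3446 ± 269 normalized counts in NOD and 3146 ± 478 in B6, and Cpe 97.7 ± 28.5 and 118 ± 8.74. Of 9 tested relatives and partners of the prion protein, 1 rose, the sheddase gene Adam17 (3297 ± 285 in NOD and 2169 ± 144 in B6, 0.60 ± 0.11, limma adjusted p = 0.0035). Adam10, a sheddase of the prion protein, averaged 1953 ± 351 in NOD and 2098 ± 387 in B6, and the kinase gene Fyn 4649 ± 193 and 4955 ± 366, and neither passed the test.

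Since Cpm, Izumo1r and Prnp share the GPI anchor, genes that build the anchor and other genes whose products carry it were counted. Of 28 anchor synthesis genes, 1 rose and 2 fell, a share of 10.7% called against 9.89% among all tested genes. These were Pgap2 (-0.91 ± 0.15, limma adjusted p = 0.0021), Pign (-0.63 ± 0.15, adjusted p = 0.023) and Pigo (0.56 ± 0.15, adjusted p = 0.033). Pign was not called without NOD library 2, B6 library 4, B6 library 12 or B6 library 20, and Pigo was called only with NOD library 18 left out or with all libraries. Piga, which catalyses the first step, averaged 415 ± 54.0 in NOD and 356 ± 43.8 in B6 and missed the threshold.

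Of 18 other genes of GPI-anchored surface proteins, 4 rose and 4 fell. Plaur, the urokinase receptor, averaged 1085 ± 370 normalized counts in NOD and 138 ± 25.6 in B6 (2.93 ± 0.22, limma adjusted p = 7.6e-06). Ly6e fell (1880 ± 566 in NOD and 7082 ± 344 in B6), and Ly6c2 had 0, 1 and 2 normalized counts in NOD against 33, 16 and 69 in B6. Art2a-ps, annotated as a pseudogene, had 6, 10 and 18 normalized counts in NOD against 163, 107 and 103 in B6. Reads of Ly6 and Art2 genes may have been split among similar copies, so these values are uncertain. Genes of GPI-anchored proteins thus moved in both directions, and among the 3 followed here Cpm was lower and Prnp and Izumo1r were higher in NOD.

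**Figure D4:**
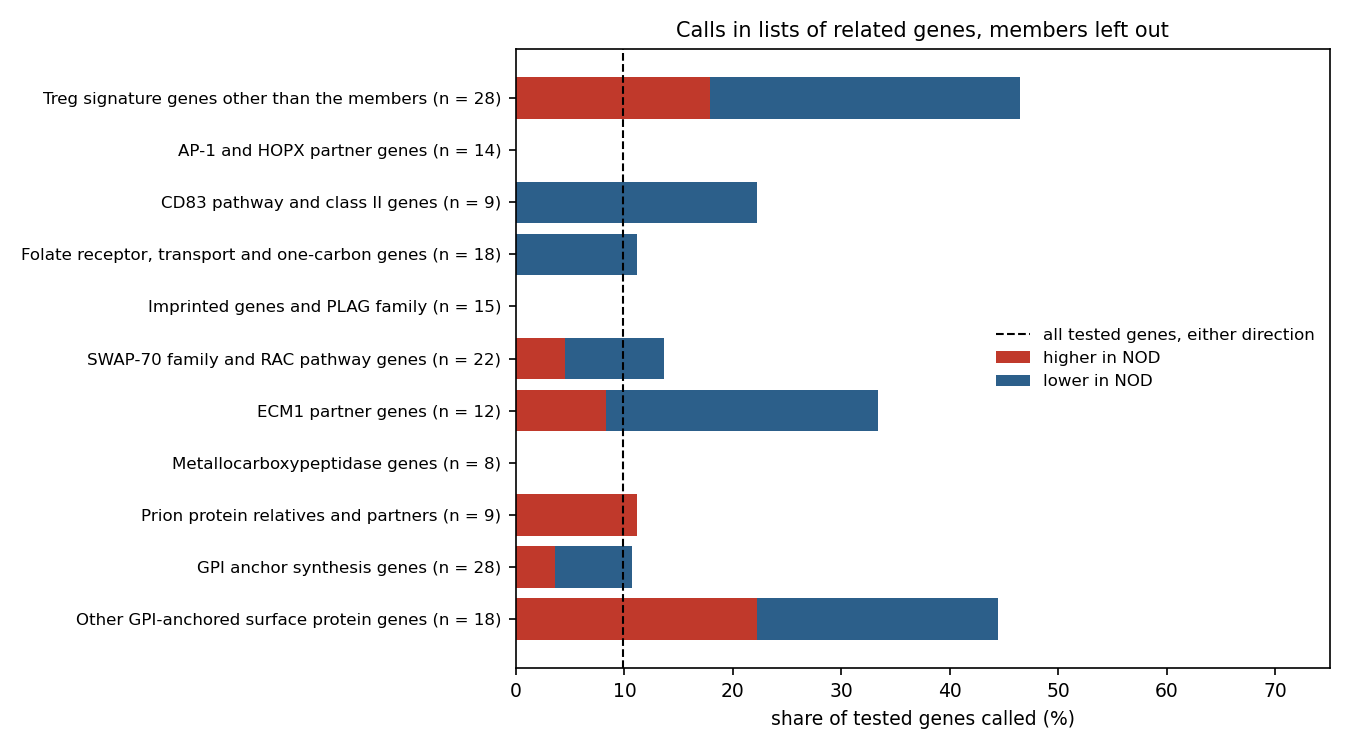
Share of tested genes called by limma at an adjusted p below 0.05 in each list of related genes, in percent, with genes higher in NOD in red and lower in NOD in blue; the dashed line marks the 9.89% called among all tested genes. The Treg signature list (13 of 28 genes) and the other GPI-anchored proteins (8 of 18) hold the largest shares, while the AP-1, imprinted and metallocarboxypeptidase lists hold no call.

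For each member, the gene with the most similar profile over the 6 libraries was found among 12158 other tested genes, by the root mean square difference of log2 values after centring each gene on its own mean. Swap70 was closest to Crim1, a transmembrane protein gene, with a difference of 0.04 on the log2 scale, and Cd83 to Eprs, a tRNA synthetase gene, with 0.06. Plagl1 was closest to Map3k4 (0.07), Prnp to Ociad2 (0.07), Izumo1r to S100a6 (0.08) and Ecm1 to Pcyox1 (0.09). Cpm and Hopx had no neighbour as close. Cpm was closest to Bmf, a pro-apoptotic gene with 57, 48 and 49 normalized counts in NOD libraries 2, 10 and 18 and 467, 475 and 335 in B6 libraries 4, 12 and 20, at 0.18. Hopx was closest to the zinc finger gene Zfp991, with 15, 16 and 12 in NOD and 167, 129 and 163 in B6, also at 0.18. The difference between strains made up 93.9% of the squared deviations of Cd83 from its mean over the 6 libraries, 94.5% for Prnp, 99.0% for Hopx and 99.1% for Cpm. It made up 63.6% for Swap70, 59.6% for Izumo1r, 20.9% for Plagl1 and 9.27% for Ecm1, so the matches of Plagl1 and Ecm1 rest mostly on spread within strains.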

How the data were processed

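RNA was sequenced from sorted thymic Treg of NOD and B6 mice, with 3 libraries per strain. The submitters' processing notes name Trimmomatic, STAR and DESeq2 as the authors' tools and mm10 as the build. How reads were counted, by which annotation and with what strand setting, is not given in the sources used here. The authors deposited scores that the file headers mark as normalized. That these are read counts scaled by each library's size factor, then rounded, was inferred from the tool named and from the whole-number values. The same deposit also holds the authors' log2 fold changes with p-values and adjusted p-values. Columns were matched to strain by name and carry library numbers that are not the labels' replicate numbers. Normalized counts summed to between 16097369 and 17625903 per library, and depth estimated from gaps that the rounding left was 15500000 to 21600000 reads. Rounding hid some read counts, so no count test was run and the test for normalized values was used. Between libraries of a strain, correlations of log2 values were 0.973 to 0.987 and no pair agreed within sampling noise.

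Strains were compared with limma 3.58.1 (R 4.3.3, data.table in version 1.17.8) after taking log2(value + 1), with a single term for strain, a trend in the empirical Bayes step and two-sided tests with Benjamini-Hochberg adjustment at 0.05, and the fit was tested on simulated data. Fold changes on this scale understate the change of low genes. Python 3.11.15 with pandas 2.3.3 and numpy 2.4.6 made the other tables. Coordinates and exon lengths come from GENCODE M21, which held 99.3% of tested symbols. The members and lists were chosen with earlier results of these data known. Named genes are the members, up to 4 called genes per list with the largest difference, and the most similar profile of each member. Chromosomal and overlapping neighbours follow a rule of position, and other list genes were chosen after their values were seen. Alternatives were other pseudocounts, no filter, other scalings, no trend, the authors' fit, leaving out each library and, added after the data were seen, a block by column number.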

Additional observations from a re-analysis of the deposited data

How the results depend on the processing

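The log2 differences of the 8 members moved by less than the spread between replicates under all 14 alternatives. For the fits with a library left out this was fixed in advance, since such a fit cannot move a difference by that spread. Dropping the filter or the trend, or adding the block by column number, leaves the differences unchanged. Only other pseudocounts, other scalings and the authors' fit could have moved them further. With each library left out in turn they ranged from -3.75 to -3.52 for Hopx, -2.91 to -2.70 for Cpm, -1.13 to -0.95 for Cd83, -0.46 to -0.27 for Swap70, -0.31 to -0.04 for Plagl1, -0.44 to -0.03 for Ecm1, 0.38 to 0.73 for Izumo1r and 1.04 to 1.24 for Prnp. Over all genes, 755 were called higher and 871 lower in NOD, and 490 to 781 higher and 569 to 1011 lower with a library left out. The lowest of these counts came without NOD library 18 and without B6 library 4. Over the 11 lists, leaving out a library gave 9 to 13 higher and 14 to 25 lower genes, against 13 and 22 with all libraries. Without a trend, 7 list genes were called higher, and the Treg signature list held 2 higher and 3 lower genes; the cause was not tested. Of 308 single list counts under alternatives, 46 differed by more than 1.5 times, most of them counts of 1 or 2 genes. The columns carry no replicate number of the labels. After the data were seen, their own numbers were taken as sets (2 with 4, 10 with 12, 18 with 20) for a replicate block, although no source used here says that these numbers pair libraries. Deviations from the strain means correlated at 0.01, 0.18 and 0.13 within these sets over 16442 genes, and at -0.17 to 0.10 outside them. The values of 0.18 and 0.13 were thus the highest. However, NOD library 2 correlated best with B6 library 20 (0.10), and B6 library 4 with NOD library 10 (0.03), so the pairing was not adopted. With this block, 955 genes were called higher and 1072 lower in NOD, 14 and 31 of them in the lists, with 5 lower genes in the class II list, 2 higher in the RAC list and 1 lower in the AP-1 list. Depth limits the genes with few counts, such as Tiam2, Hspg2 and Hopxos.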

Other observations

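The authors' deposited table gives a mean normalized count per gene that is not the mean of the 6 library columns, and the sources used here do not state over which samples it was taken. Over all tested genes the deposited mean was at the median 1.0 times the mean of the 6 columns, and the 5th and 95th percentiles were 0.59 and 1.76. For Plagl1 it was 1281 in the authors' deposited table, against 3340 over the 6 columns, a ratio of 0.38. For Hopx it was 517 against 1290 (0.40), and for Cpm 760 against 1845 (0.41). Of tested genes, 0.69%, 0.89% and 1.01% had a lower ratio than Plagl1, Hopx and Cpm. Cd83 followed with a ratio of 0.61, Ecm1 with 0.75 and Swap70 with 0.85, while Prnp had 1.13 and Izumo1r 1.19. Plagl1, which overlapped between NOD and B6, thus stood beside Hopx and Cpm, the members with the largest difference between strains.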
